A study of Mus musculus with 10 samples.

Results

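The elastic fibre and lysyl oxidase genes described here are Eln, Fbn1, Mfap4, Emilin1, Fbln1, Fbln2, Fbln5, Lox, Loxl1 and Loxl2. They were chosen by symbol as proteins of elastic fibres and enzymes that cross-link matrix, 10 of the 37583 genes counted. Each matched 1 Ensembl identifier, and all 10 were among the 15364 genes with enough reads to be tested. The data are 10 poly(A) RNA-seq libraries of adult mouse left atria from 2 experiments. The libraries KO26 and KO337 are labelled as a cardiac knockout of Csk, the gene of C-terminal Src kinase, and are set against WT35 and WT338 from untreated wild-type mice. IBR1 to IBR3 came from mice given ibrutinib, a Bruton's tyrosine kinase inhibitor used against B cell cancers, and are set against CTL1 to CTL3 from mice given vehicle. The sources used here give no strain, sex, dose, duration or Cre line.

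Elastic fibres give tissue its recoil. They form when tropoelastin is laid onto a scaffold of fibrillin microfibrils with the help of fibulins and other microfibril proteins. Lysyl oxidases then oxidise lysine side chains, which lets elastin and collagen chains cross-link into insoluble fibres. In the heart such fibres lie in the endocardial layer of the atria, in valves and in vessel walls, and their proteins come mainly from fibroblasts, smooth muscle and endothelial cells.

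The libraries held 14907331 to 19960947 counts on genes. The labels do not say that replicates came from separate animals, and the p-values therefore cover only the variation among these libraries, which may be technical. That variation exceeded counting error. The chi-square of the counts per degree of freedom was 13.97 to 37.41 for pairs within CTL, IBR or WT, and 136 for KO26 with KO337. Atrial identity was read from Myl7, which stood at 2044 to 8990 CPM (read counts scaled to library size, with the trimmed mean of M values, TMM, as the scaling). It does not show the side, and that the atria were left rests on the labels. Bmp10, which was listed with the atrial muscle markers, had 4.47 CPM (77 counts) in KO26 and 0.0453 to 0.569 CPM in every other library. What its level says of the side, or of KO26, was not tested. Of the 3 ventricular muscle markers, Myl2 did not exceed 8.62 CPM, while Myl3 ran from 5.596 to 173 CPM and Myh7 from 78.1 to 856 CPM. The Csk counts went against the genotype label, at 24.7 and 35.5 CPM in KO26 and KO337, against 18.3 and 17.8 CPM in WT35 and WT338. Counts over a whole gene do not show whether an exon was deleted. The pair is called the libraries labelled KO, and every direction of that comparison rests on the label. KO26 and KO337 also stood further apart than any other pair of 1 group (Spearman correlation 0.955 across genes, against 0.984 to 0.991), so results are given with and without each of them.

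Every one of the 10 genes had a higher mean level in the labelled KO group than in WT, and likewise in IBR than in CTL, and none passed the test in either comparison. KO337 was the highest of the 10 libraries for all 10 genes, whereas KO26 ran from 0.643 (Mfap4) to 1.53 (Loxl2) times the WT mean. The summed level of the 10 genes was 889 and 2969.6 CPM in KO26 and KO337, against 768 and 997 CPM in WT35 and WT338. It was 805 to 1076 CPM in IBR, against 540 to 860 CPM in CTL. In whole tissue, fewer cells of a type and less RNA per cell cannot be told apart, and this holds for all levels below.

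**Figure D1:**
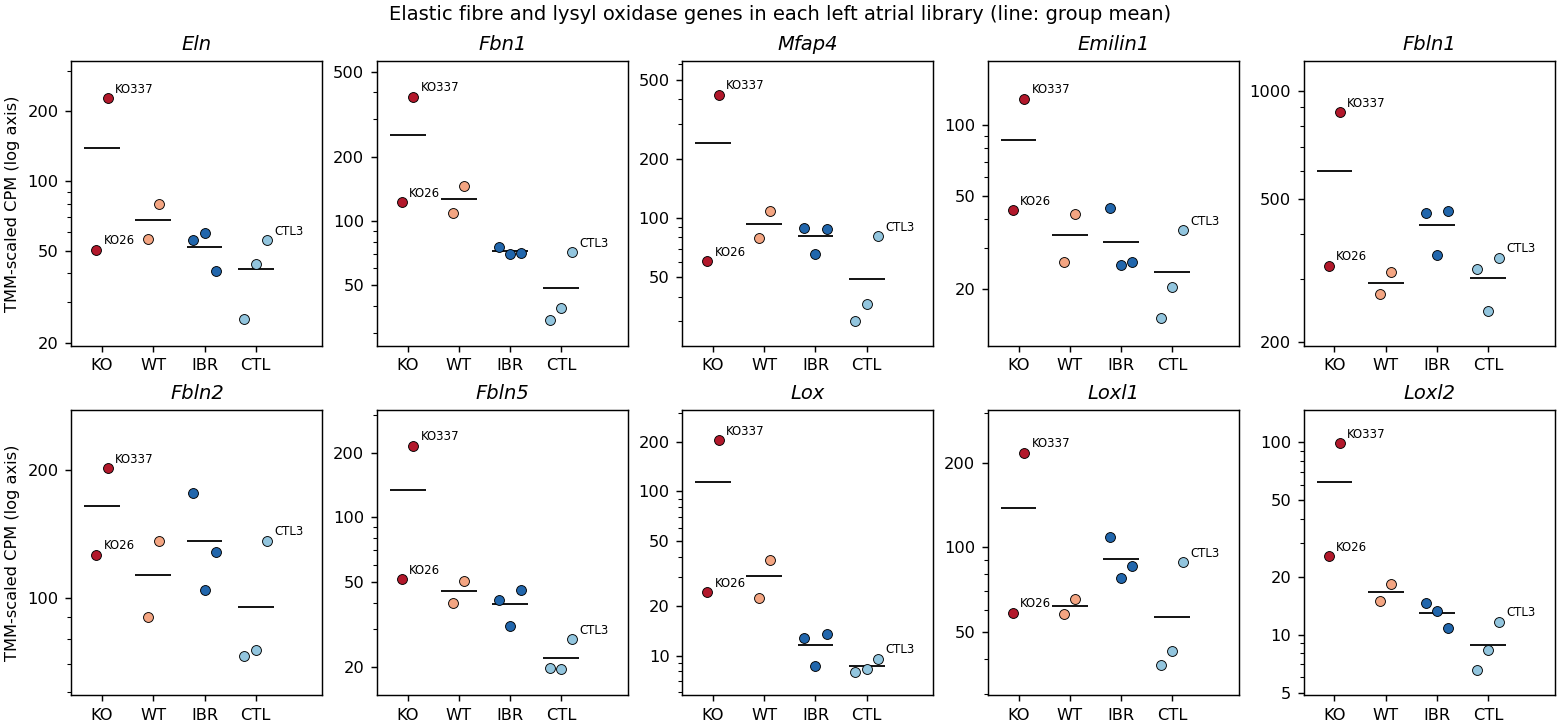
Level of each gene in each left atrial library in TMM-scaled CPM on a log axis, by group, with a line at the group mean. KO337 is the top point in all 10 panels, and CTL3 lies above CTL1 and CTL2 in all 10.

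Eln (ENSMUSG00000029675) encodes tropoelastin, the soluble monomer of elastin. It had 50.4 and 228 CPM in KO26 and KO337, against 56.2 and 79.5 CPM in WT35 and WT338. The groups overlapped, since KO26 lay below both WT libraries. Its log2 difference, labelled KO minus WT, was 1.04 (standard error, SE, 0.59), with an adjusted p of 0.294 by edgeR's quasi-likelihood test with Benjamini-Hochberg adjustment, the test behind all adjusted p-values here unless another is named.

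Fbn1 (ENSMUSG00000027204) encodes fibrillin-1, the backbone of the microfibril and an anchor of latent TGF-beta complexes. It stood at 123 and 383 CPM in KO26 and KO337, against 109 and 146 CPM in WT35 and WT338. KO26 lay between both WT libraries, and the log2 difference of 0.99 (SE 0.48) had an adjusted p of 0.224. Mfap4 (ENSMUSG00000042436), a secreted glycoprotein that binds fibrillin, elastin and collagen, had 60.3 and 421 CPM in KO26 and KO337, against 79.3 and 108 CPM in WT35 and WT338. Both libraries labelled KO thus lay outside the WT range on opposite sides, the low one at 0.643 and the high one at 4.49 times the WT mean. The difference for Mfap4 was 1.36 (SE 0.74, adjusted p = 0.276). Emilin1 (ENSMUSG00000029163), which sits where elastin meets the microfibril, had 43.4 and 129.6 CPM in KO26 and KO337, against 26.2 and 41.9 CPM in WT35 and WT338. Its groups did not overlap, by a margin of 1.04-fold between KO26 and WT338, and the difference was 1.35 (SE 0.55, adjusted p = 0.165).

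The fibulins are secreted glycoproteins that bridge elastin, microfibrils and basement membranes. Fbln1 (ENSMUSG00000006369), a fibulin found in elastic fibres, had 326 and 873 CPM in KO26 and KO337, against 273 and 313 CPM in WT35 and WT338. Fbln5 (ENSMUSG00000021186), which brings tropoelastin to microfibrils and is needed for elastic fibres in mice, had 51.3 and 216 CPM in KO26 and KO337, against 40.0 and 50.3 CPM in WT35 and WT338. For both genes the libraries labelled KO lay above WT without overlap, but KO26 exceeded the higher WT library by only 1.04-fold for Fbln1 and 1.02-fold for Fbln5. The log2 differences were 1.03 (SE 0.38, adjusted p = 0.129) for Fbln1 and 1.56 (SE 0.52, adjusted p = 0.113) for Fbln5. Fbln2 (ENSMUSG00000064080), a larger fibulin of developing valves and vessels, had 126 and 202 CPM in KO26 and KO337, against 90.1 and 136 CPM in WT35 and WT338. It had the smallest difference of the 10, 0.54 (SE 0.37, adjusted p = 0.387), and was the only gene for which KO337 was under 2-fold above KO26, at 1.60-fold.

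Among the cross-linking enzymes, Lox (ENSMUSG00000024529), which acts on both elastin and fibrillar collagen, had 24.2 and 204 CPM in KO26 and KO337, against 22.3 and 38.3 CPM in WT35 and WT338. KO26 lay within the WT range, and KO337 was 8.41-fold above KO26, the widest gap between both libraries among the 10 genes. The log2 difference of Lox was 1.91 (SE 0.74, adjusted p = 0.147). Loxl1 (ENSMUSG00000032334), the family member tied to elastin upkeep in mice, had 58.5 and 217 CPM in KO26 and KO337, against 57.9 and 65.3 CPM in WT35 and WT338. Its groups overlapped, and the difference was 1.16 (SE 0.56, adjusted p = 0.222). Loxl2 (ENSMUSG00000034205), which carries scavenger receptor domains and cross-links collagen IV, had 25.4 and 98.1 CPM in KO26 and KO337, against 14.8 and 18.3 CPM in WT35 and WT338. It had the widest margin between the groups, 1.39-fold, and the lowest adjusted p of the 10 genes, 0.0784, for a difference of 1.90 (SE 0.52).

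Counted together, 0 of the 10 genes were called in the libraries labelled KO against WT at an adjusted p under 0.05, where 1.31% of the 15364 tested genes were called higher and 2.21% in either direction. Fbln1, Fbln5, Lox, Loxl2 and Emilin1, 5 of the 10, had an unadjusted p under 0.05 with a positive difference, against 13.3% of all tested genes. In a fit of WT and KO alone 1 of the 10 had such a p, with a lowest adjusted p of 0.340. There 2115 of 14859 genes had an unadjusted p under 0.05 in either direction. By limma voom 3 of the 10 did, beside 2722 of 15364 genes in either direction. DESeq2 called Fbln5 (adjusted p = 0.0201) and Loxl2 (adjusted p = 0.00421), with 6.23% of its tested genes called higher, and limma voom with quality weights called 0. All 10 differences were positive, beside 50.7% of all tested genes, with a median of 1.25 beside 0.01. For 4 genes (Fbln1, Fbln5, Loxl2 and Emilin1) both libraries labelled KO lay above both WT libraries, which was so for 26.3% of all tested genes.

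Which library was kept decided the comparison. Without KO26, 9 of the 10 genes were called higher, at log2 differences of 1.56 to 2.74, beside 11.3% of all tested genes, and Fbln2 stood at 0.82 (adjusted p = 0.209). In that fit KO337 is a lone library assumed to vary like those of the other groups. Without KO337, 0 of the 10 were called, beside 0.215% of all tested genes called higher and 0.348% in either direction, and 5 had negative differences, from -0.65 for Mfap4 to -0.071 for Fbn1. Loxl2 then had the highest value, 0.60 (SE 0.30, adjusted p = 0.428). KO337 was at least 2-fold above KO26 for 9 of the 10 genes, against 10.4% of all tested genes, and the highest of the 10 libraries for 10, against 26.5%.

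**Figure D2:**
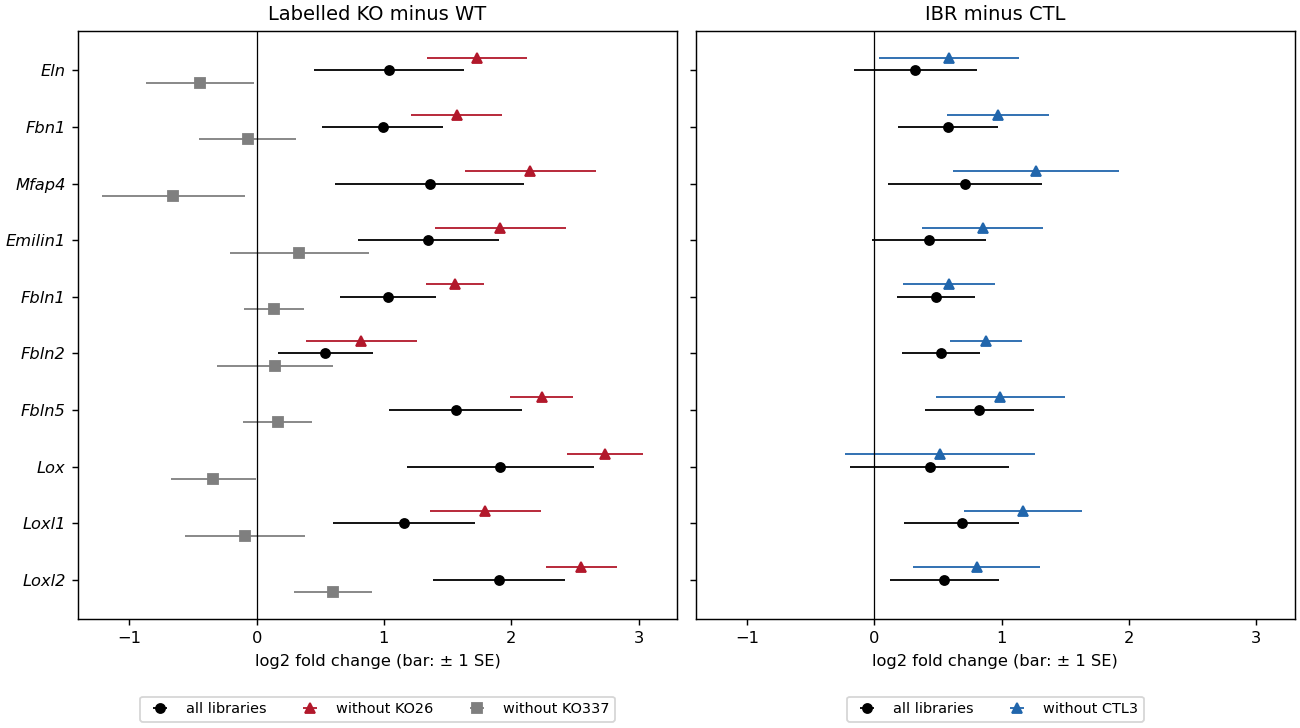
Log2 fold change of each gene with bars of 1 standard error, for the libraries labelled KO minus WT (left) and IBR minus CTL (right), from all libraries and with a named library left out. Without KO337 the left panel's values fall on both sides of 0 (-0.65 to 0.60), and without KO26 they run from 0.82 to 2.74.

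Markers of several other cell types were also highest in KO337. Beside the counts given here, 50.7% of all tested genes had positive differences and 1.31% were called higher. The summed level of 8 fibroblast markers, with 8 of 8 positive and 0 called, was 5443 and 14499.9 CPM in KO26 and KO337, against 5244 and 4752 CPM in WT35 and WT338. For 8 leukocyte markers, with 8 positive and 3 called higher (Ptprc, Adgre1 and Cd3e), it was 552 and 2509 CPM in KO26 and KO337, against 286 and 286 CPM in WT35 and WT338. Of 6 smooth muscle markers, 5 were positive and 0 called. They summed to 281 and 644 CPM in KO26 and KO337, against 360 and 367 CPM in WT35 and WT338. Smtn among them was lower, at 183 and 169 CPM in KO26 and KO337, against 279 and 235 CPM in WT35 and WT338. By contrast 5 heart muscle markers summed to 49502 and 24896 CPM in KO26 and KO337, against 65378 and 62196 CPM in WT35 and WT338. Endocardial markers (1 of 3 positive) summed to 691 and 485 CPM in KO26 and KO337, against 608 and 816 CPM in WT35 and WT338. Of 5 epicardial and mesothelial markers, 0 were positive. Their sums were 262 and 125 CPM in KO26 and KO337, against 300 and 305 CPM in WT35 and WT338. The 4 cartilage and valve markers summed to 11.6 and 90.6 CPM in KO26 and KO337, against 11.8 and 33.95 CPM in WT35 and WT338. Of these, Acan had 839 counts in KO337 and 0 in KO26, WT35 and WT338, whereas Prg4 had 6.73 and 20.4 CPM in KO26 and KO337, against 8.16 and 29.9 CPM in WT35 and WT338. The part of these markers in the levels of the 10 genes was not tested.

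To compare the genes with each other, CPM was divided by the union exon length of each gene in kb. On that scale Fbln1 was the most abundant in every group, at 74.7 and 199.9 CPM per kb in KO26 and KO337 and 67.1 ± 6.58 in WT (SD, n = 2), and at 97.1 ± 14.8 in IBR and 69.3 ± 11.7 in CTL (SD, n = 3 each). Mfap4, Loxl1 and Fbln2 followed in that order by group means, and Loxl2 was lowest in every group, at 1.63 ± 0.48 CPM per kb in CTL (SD, n = 3). KO337 was the library in which Mfap4 exceeded Fbln1, with 31.5% and 28.8% of the summed level per kb. Mfap4 held 16.9% in KO26 and 24.3% and 25.8% in WT35 and WT338. Lox made up 6.14% of the sum in KO337 and 2.72% in KO26, against 2.75% and 3.67% in WT35 and WT338.

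The make-up of the lysyl oxidases was not alike in both experiments. Of the summed level per kb of Lox, Loxl1 and Loxl2, Lox held 18.4% and 33.7% in KO26 and KO337, against 18.7% and 25.7% in WT35 and WT338. In the ibrutinib experiment it held 6.46% to 9.19% in IBR, against 6.45% to 11.5% in CTL. Loxl1 was the main transcript throughout, with 64.5% and 51.9% in KO26 and KO337 and 63.5% to 70.3% in WT, and 84.3% to 86.0% in IBR and 79.8% to 86.6% in CTL. Lox itself averaged 11.6 ± 2.65 CPM in IBR and 8.60 ± 0.83 CPM in CTL (SD, n = 3 each), below the 22.3 CPM of the lower WT library. The experiments differ in ways the labels do not describe, so batch and experiment cannot be told apart.

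**Figure D3:**
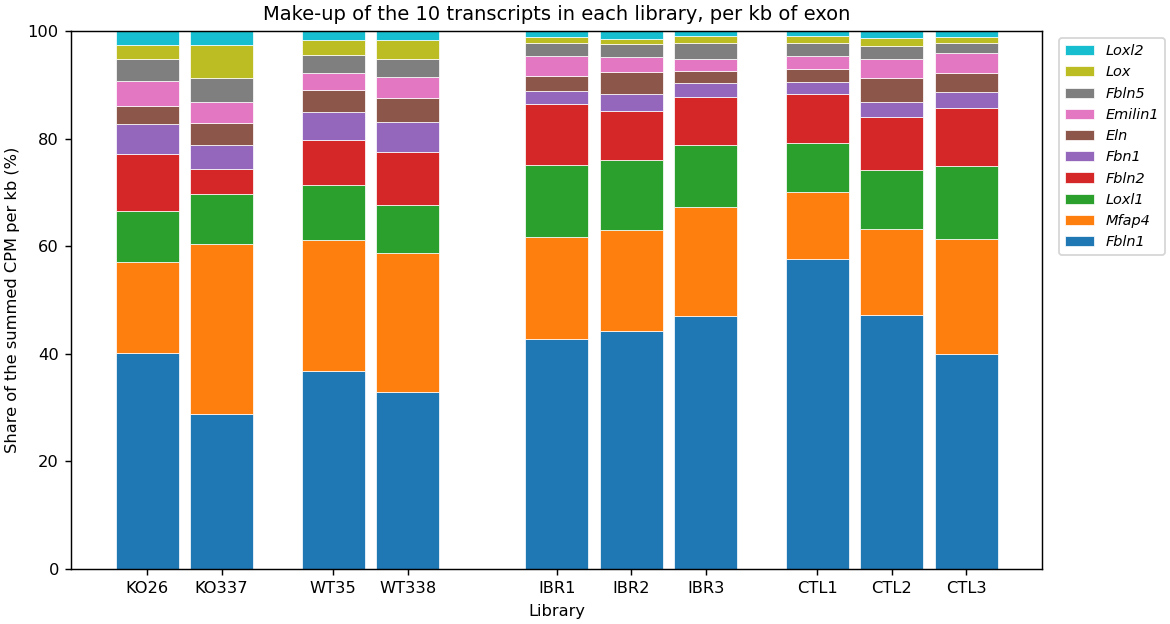
Share of each gene in the summed CPM per kb of the 10 genes, in percent, as stacked bars by library. Fbln1 is the widest segment in every library other than KO337, where Mfap4 holds 31.5% and Fbln1 28.8%, and Lox holds 6.14% there.

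For 7 of the 10 genes the group means ran from the libraries labelled KO through WT and IBR to CTL. Fbln1, Fbln2 and Loxl1 departed from that order, with IBR second. Neighbouring groups overlapped in all 3 steps of the order for Eln, Fbln2 and Mfap4, while for Loxl2 both the upper steps were free of overlap. WT and IBR stand in different experiments, so their place in the order is given as a description.

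With ibrutinib, Eln had 55.7, 59.4 and 40.9 CPM in IBR1 to IBR3, against 25.5, 44.0 and 55.4 CPM in CTL1 to CTL3, and CTL2 and CTL3 lay inside the IBR range. Fbn1 had 75.5, 70.0 and 71.1 CPM in IBR1 to IBR3, against 34.5, 39.3 and 71.5 CPM in CTL1 to CTL3, and CTL3 alone of the CTL libraries reached the IBR range. Mfap4 had 88.9, 65.7 and 87.7 CPM in IBR1 to IBR3, against 30.2, 36.8 and 80.7 CPM in CTL1 to CTL3. Emilin1 had 44.2, 25.3 and 26.2 CPM in IBR1 to IBR3, against 15.02, 20.4 and 35.7 CPM in CTL1 to CTL3. For Mfap4 and Emilin1, too, CTL3 was the CTL library inside the IBR range. The log2 differences between IBR and CTL were 0.32 (SE 0.48) for Eln, 0.58 (SE 0.39) for Fbn1, 0.71 (SE 0.60) for Mfap4 and 0.43 (SE 0.45) for Emilin1, with adjusted p-values of 0.824 to 0.911.

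Among the fibulins, Fbln1 and Fbln5 separated by treatment and Fbln2 did not. Fbln1 had 459, 349 and 464 CPM in IBR1 to IBR3, against 319, 245 and 343 CPM in CTL1 to CTL3, and Fbln5 had 41.2, 31.0 and 45.7 CPM in IBR1 to IBR3, against 19.9, 19.7 and 26.9 CPM in CTL1 to CTL3. These were the 2 genes of the 10 with every IBR library above every CTL library, which was so for 5.91% of all tested genes, by 1.02-fold for Fbln1 and 1.15-fold for Fbln5. Fbln2 had 177, 104 and 128 CPM in IBR1 to IBR3, against 73.2, 75.5 and 136 CPM in CTL1 to CTL3, and CTL3 exceeded 2 of the IBR libraries. The log2 differences were 0.49 (SE 0.31, adjusted p = 0.824) for Fbln1, 0.83 (SE 0.43, adjusted p = 0.823) for Fbln5 and 0.52 (SE 0.31, adjusted p = 0.823) for Fbln2.

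Lox had 12.7, 8.61 and 13.6 CPM in IBR1 to IBR3, against 7.97, 8.29 and 9.54 CPM in CTL1 to CTL3, an overlap made by IBR2. Loxl1 had 108, 77.9 and 86.0 CPM in IBR1 to IBR3, against 38.2, 42.7 and 88.3 CPM in CTL1 to CTL3. Loxl2 had 14.6, 13.3 and 10.8 CPM in IBR1 to IBR3, against 6.54, 8.29 and 11.7 CPM in CTL1 to CTL3. CTL3 lay inside the IBR range for Loxl1 and Loxl2, and both other CTL libraries lay below it. The log2 differences were 0.43 (SE 0.62) for Lox, 0.69 (SE 0.45) for Loxl1 and 0.55 (SE 0.43) for Loxl2, with adjusted p-values of 0.824 to 0.908.

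In all, 0 of the 10 genes were called in IBR against CTL, as were 0 of the 15364 tested genes (0%), and 848 of all genes (5.52%) had an unadjusted p under 0.05. None of the 10 did, where 3.31% of all tested genes had such a p with a positive difference. DESeq2 and limma voom also called 0 of the 10, and DESeq2 called 2 genes of all tested. All 10 differences were positive, beside 44.7% of all tested genes, with a median of 0.54 beside -0.03. CTL3 was above CTL1 and CTL2 for all 10 genes, against 36.8% of all tested genes. In a fit of IBR and CTL alone 4 of the 10 had an unadjusted p under 0.05, beside 9.4% of all genes tested there in either direction, with a lowest adjusted p of 0.513. By voom 6 of the 10 did, beside 16.1% of all genes, with a lowest adjusted p of 0.196. Without CTL3 the median was 0.86, and Fbn1, Fbln2 and Loxl1 had an unadjusted p under 0.05, beside 10.9% of all genes, none passing the adjustment.

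The 8 fibroblast markers, 8 of 8 positive, summed to 3180 to 5297 CPM in IBR, against 2253 to 3304 CPM in CTL. The 6 endothelial markers, 6 of 6 positive, summed to 766 to 1015 CPM in IBR, against 497 to 923 CPM in CTL. The highest of the CTL sums was that of CTL3 in both. Smooth muscle markers had 2 of 6 positive, at 250 to 289 CPM in IBR, against 275 to 363 CPM in CTL. Leukocyte markers had 7 of 8 positive, at 216 to 323 CPM in IBR, against 171 to 198 CPM in CTL. Beside these counts, 44.7% of all tested genes had positive differences. The 5 atrial muscle markers summed to 19291 to 23360 CPM in IBR, against 28067, 28831 and 20698 CPM in CTL1 to CTL3. The 5 heart muscle markers overlapped, at 60555 to 63150 CPM in IBR, against 60778 to 72319 CPM in CTL. Their median log2 difference was -0.009, with 2 of 5 positive. The part of these markers in the differences of the 10 genes was not tested.

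The effects of the label KO and of ibrutinib were then set against each other in the same fit. The difference of both effects was positive for all 10 genes, beside 52.7% of all tested genes, and for 6 of the 10 by limma voom. It ran from 0.02 for Fbln2 to 1.48 for Lox on the log2 scale, and 0 of the 10 were called, beside 0.026% of all tested genes in either direction, nor did any have an unadjusted p under 0.05, where 4.97% of all tested genes had one with a positive difference. The lowest adjusted p was 0.539, for Loxl2 (1.35, SE 0.66). Without KO26, Fbln1, Fbln5, Lox and Loxl2 were called, beside 3.84% of all tested genes called higher, whereas without KO337 0 were called and Loxl2 alone kept a positive value, 0.03.

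Fbln1 and Fbln5 were the 2 genes whose libraries did not overlap in either comparison, and their promoters are shown for that reason. The windows, from RefSeq on GRCm38.p6, hold 250 bases before and 50 after the annotated start, written 5' to 3' on the strand of the gene, and of the 2 windows listed for each gene the one nearest the start of a principal GENCODE vM21 transcript is shown. The Fbln1 window is chr15:85205699-85205998 on the plus strand and the Fbln5 window is chr12:101819070-101819369 on the minus strand. Capitals mark GC boxes (GGGCGG on either strand).
Fbln1: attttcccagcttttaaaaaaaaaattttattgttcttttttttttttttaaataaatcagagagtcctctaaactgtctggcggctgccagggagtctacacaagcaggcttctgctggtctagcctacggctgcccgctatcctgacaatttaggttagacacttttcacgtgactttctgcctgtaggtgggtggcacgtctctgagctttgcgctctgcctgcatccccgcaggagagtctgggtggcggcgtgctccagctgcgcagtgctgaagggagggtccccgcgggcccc
Fbln5: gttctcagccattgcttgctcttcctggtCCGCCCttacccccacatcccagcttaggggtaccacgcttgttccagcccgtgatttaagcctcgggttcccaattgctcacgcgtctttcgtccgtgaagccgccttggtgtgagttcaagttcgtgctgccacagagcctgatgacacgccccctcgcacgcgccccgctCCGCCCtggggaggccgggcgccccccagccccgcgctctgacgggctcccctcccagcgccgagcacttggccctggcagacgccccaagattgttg
The Fbln5 window held 2 GC boxes and 65.7% G and C, and the Fbln1 window held 0 and 51.7%, beside a median of 52.7% over 32841 mouse promoter windows. Of the 5 members with such a window, Fbn1 had 1 GC box, Fbln2 and Fbln5 had 2 each, and Fbln1 and Emilin1 had 0, where 35.7% of all windows held at least 1. None of the 5 held a TATA box (TATAAA), an AP-1 site (TGANTCA), a TEAD site (GGAATG) or a CArG box, each read on both strands, which occurred in 13.6%, 7.81%, 14.7% and 1.63% of all windows in that order. No 2 of the matches overlapped.

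Beside the counts in this list and the lists after it, 50.7% of all tested genes had positive differences in the libraries labelled KO and 1.31% were called higher. Other genes of the elastic fibre and microfibril, a list of 22 without the 10, gave 21 tested genes. Of these, 13 had positive differences and 1 was called higher. That gene was Fbln7, a smaller gene of the fibulin family. It had 4.35 and 25.9 CPM in KO26 and KO337, against 1.29 and 1.38 CPM in WT35 and WT338 (log2 difference 3.50, SE 0.68, adjusted p = 0.0399), and without KO337 its difference was 1.68 with an adjusted p of 0.126. Ltbp2, a latent TGF-beta binding protein that binds fibrillin, had 10.2 and 183 CPM in KO26 and KO337, against 3.56 and 4.34 CPM in WT35 and WT338, at an adjusted p of 0.0593. Adamtsl4, a microfibril-associated protein, lay the other way at 74.9 and 53.5 CPM in KO26 and KO337, against 95.4 and 99.3 CPM in WT35 and WT338 (-0.60, adjusted p = 0.0788). The list's median was 0.38 from all libraries, -0.01 without KO337 and 0.73 without KO26.

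Of 15 other cross-linking and matrix-processing genes, all tested, 13 were positive and 0 called, at a median of 0.42. Loxl3, a further lysyl oxidase, had 13.6 and 47.5 CPM in KO26 and KO337, against 6.53 and 9.62 CPM in WT35 and WT338 (1.93, adjusted p = 0.0732). Lum, the keratan sulphate proteoglycan lumican, had 221 and 1036 CPM in KO26 and KO337, against 202 and 179 CPM in WT35 and WT338 (1.73, adjusted p = 0.105). Tgm2, a transglutaminase that cross-links proteins by another reaction, had 248 and 269 CPM in KO26 and KO337, against 383 and 450 CPM in WT35 and WT338 (-0.69, adjusted p = 0.0812). Loxl3 and Tgm2 had differences of opposite sign, neither past the threshold.

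Proteases that cut elastin, with their inhibitors, gave 11 tested genes of 15 listed, 9 positive and 1 called higher, at a median of 1.00, which was -0.01 without KO337. The called gene was Ctss, a lysosomal and secreted cysteine protease of macrophages with elastase activity. It had 52.9 and 630.0 CPM in KO26 and KO337, against 15.1 and 15.8 CPM in WT35 and WT338 (4.46, adjusted p = 0.0455), and it was also called without KO337 (1.75, adjusted p = 0.0414). Mmp14, a membrane-bound metalloproteinase, had 59.5 and 234 CPM in KO26 and KO337, against 34.9 and 51.8 CPM in WT35 and WT338 (1.76, adjusted p = 0.0872). Mmp9, a gelatinase, had 3.25 and 5.07 CPM in KO26 and KO337, against 8.76 and 9.49 CPM in WT35 and WT338 (-1.12, adjusted p = 0.0646), and 14.1, 10.3 and 11.8 CPM in IBR1 to IBR3, against 7.97, 5.19 and 6.22 CPM in CTL1 to CTL3 (0.90).

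Mmp12, the macrophage elastase, was named after its values were seen. It had 8342 counts in KO337 and 8 in KO26, against 3 and 1 in WT35 and WT338, and 0 to 4 in any IBR or CTL library. With 1 library at a high level it did not pass the filter on low counts and has no test across all libraries. Of 11 integrins and elastin receptor genes, 9 were positive and 0 called, at a median of 0.48 (-0.10 without KO337). Itgb5, a beta chain of vitronectin-binding integrins, had 129.6 and 362 CPM in KO26 and KO337, against 107 and 120 CPM in WT35 and WT338, and Itga8, an alpha chain that binds nephronectin, had 4.18 and 32.1 CPM in KO26 and KO337, against 4.65 and 3.96 CPM in WT35 and WT338.

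**Figure D4:**
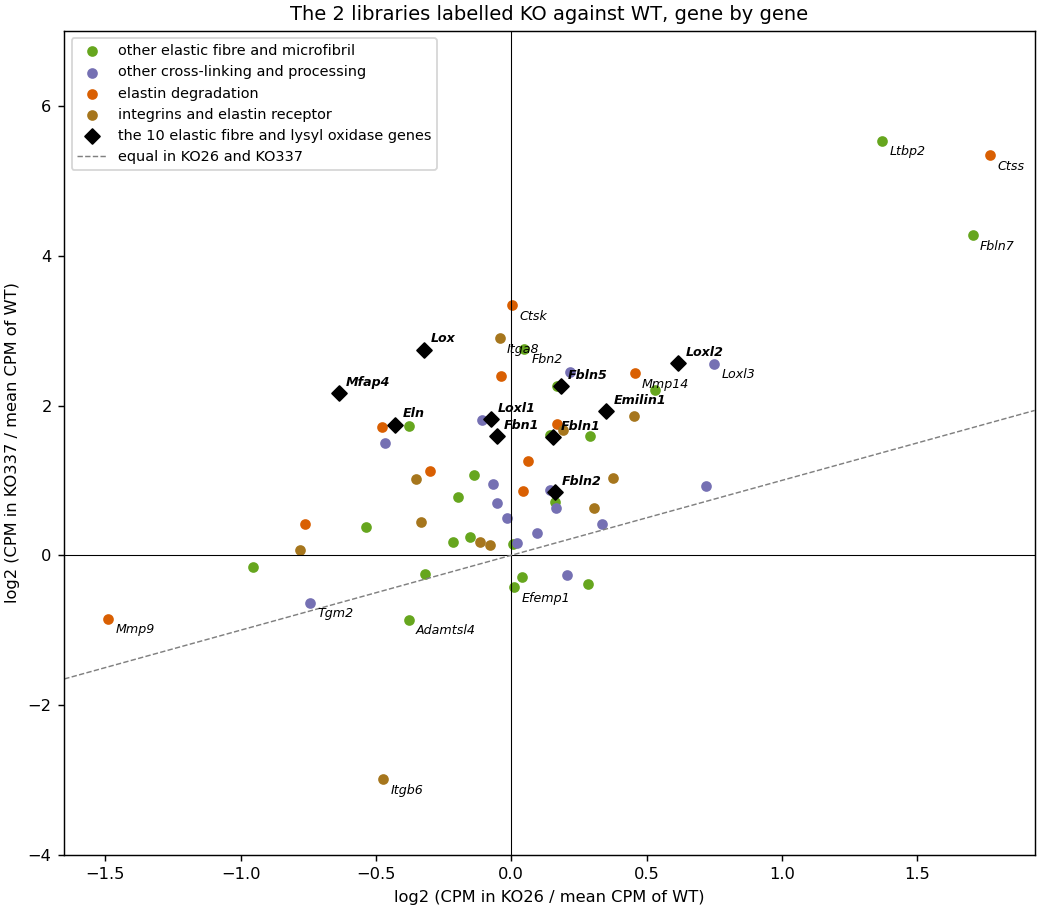
Log2 ratio of each gene to the mean of WT35 and WT338 in KO337 (vertical) against KO26 (horizontal), for the 10 genes (diamonds) and 4 lists of related genes (dots), with a dashed line where both libraries are equal. All 10 diamonds lie above the dashed line, with KO337 at 1.79 (Fbln2) to 6.72 (Lox) times the WT mean on a linear scale.

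In IBR against CTL the 4 lists had medians of 0.29, 0.36, 0.32 and 0.07 in the order given above, and 0 of their genes were called. Efemp1, the gene of fibulin-3, had 86.6, 65.0 and 92.5 CPM in IBR1 to IBR3, against 37.6, 32.6 and 55.7 CPM in CTL1 to CTL3, with no overlap (log2 difference 0.95, adjusted p = 0.823). Dcn, the small proteoglycan decorin, had a difference of 0.78 and Slpi, an inhibitor of elastase, one of -1.67, neither past the threshold. Slpi rests on few reads, with 17, 3 and 15 counts in IBR1 to IBR3, against 70, 35 and 5 in CTL1 to CTL3.

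Across the 10 libraries the genes followed each other on the log2 (CPM + 0.5) scale. The 45 pairs among them had Pearson correlations of 0.64 to 0.96 with a median of 0.89, and of -0.06 to 0.92 with a median of 0.70 over the 9 libraries other than KO337. The gene most like Fbn1 among 11755 candidates was Postn, the matricellular protein periostin, at 0.996 over 10 libraries and 0.993 over 9. Mfap4 was most like Bgn, the proteoglycan biglycan (0.986 over 10 and 0.954 over 9), and Comp, a cartilage matrix protein (0.980 and 0.940). Lox was most like Fas (0.991 over 10 libraries and 0.969 over 9) and Fbln5 like Scpep1 (0.992 and 0.969). Over the 9 libraries Fas ranked 24 for Lox and Scpep1 ranked 12 for Fbln5. Loxl2 was most like Trim26 (0.991 and 0.978, still rank 1) and Emilin1 like Galnt10 (0.985 and 0.966, rank 2). Fbln1 was most like Rhog (0.980 and 0.934). The lowest best value was 0.965, for Loxl1 with Igfbp4, which was 0.921 over 9 libraries. Next came Eln with Cttn (0.969 and 0.883) and Fbln2 with Islr (0.972 and 0.961). These values describe libraries that differ in experiment, depth and tissue make-up, and KO337 lies far from the rest. Leaving KO337 out does not remove the difference between the experiments. Lox, for one, had 22.3 and 38.3 CPM in WT35 and WT338, against 7.97 to 9.54 CPM in CTL.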

How the data were processed

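The deposited files held raw counts of reads per gene, 1 file per library, with no normalization by the authors. Reads were processed with STAR, HTSeq and edgeR on build mm9, per the submitters' processing notes; their versions and the annotation were not given in the sources used here. RNA was, per the labels' protocols, poly(A)-selected for a directional kit, and per the file names counting ignored strand, so reads of overlapping antisense genes cannot be told apart. Among the 10 genes, Fbn1 shares 2442 exonic bases, 20.1% of its exons, with Gm9913 (13 counts in all libraries together). Mfap4 shares 89 bases with Mapk7. What these overlaps do to the level per kb was not tested. Eln, Lox and Loxl2 share 267, 30 and 301 exonic bases with antisense genes that have no row in the count files, so reads of these would be counted for the member.

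Unassigned reads, 5 rows per file, were left out: 13.5% to 19.9% of records lay in no feature, 11.8% to 27.4% had no unique position and 3.14% to 3.99% were ambiguous. Symbols were matched for 32860 identifiers (87.4%). A floor of 3 counts equals 0.15 to 0.201 CPM, which covers counting error only.

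Counts were analysed in R 4.3.3 with edgeR 4.0.16. Its filterByExpr chose the genes (minimum count 10, minimum total 15). Libraries were scaled by TMM and fitted with a mean per group over all 10 libraries by a robust quasi-likelihood fit, with 6 residual degrees of freedom. The tests were read from that fit, with Benjamini-Hochberg adjustment over all 15364 genes, and "called" means an adjusted p under 0.05. A standard error is the log2 difference over the square root of F. The biological coefficient of variation was 0.221 over all libraries, 0.169 in CTL with IBR alone and 0.294 in WT with KO alone. Alternatives were other scaling (RLE, total counts), no filter, DESeq2 1.42.0, limma 3.58.1 voom with quality weights, each experiment alone, a replicate block, and each library left out. Exon lengths came from GENCODE vM21, of another build than mm9, and are used for levels between genes only. The scripts were tested on simulated counts.

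The members and lists were chosen with earlier results of these data known. Named are the 10 genes, Csk, and from each list the called genes, the 3 with the lowest p in the libraries labelled KO and the 2 in IBR; some of these stand in tables only. Genes most alike are those of highest Pearson correlation with an average log2 CPM of at least 1.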

Additional observations from a re-analysis of the deposited data

How the results depend on the processing

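In the libraries labelled KO against WT, 0 of the 10 genes were called, 2 by DESeq2 and 0 to 9 with a library left out. Of all genes 339 were called, 1146 with no filter, 1858 by DESeq2, 124 by voom, 0 with each experiment alone, and 14 to 3933 with a library left out (3933 without KO26, 55 without KO337, 14 without WT35, 21 without WT338, 19 without IBR3, and 100 (IBR1) to 162 (CTL3) without each other CTL or IBR library). Scaling by total counts moved the median of all genes by 0.23 on the log2 scale and split the calls as 295 higher and 66 lower, against 201 and 138. In IBR against CTL 0 genes were called, 2 with no filter and 2 by DESeq2. For the difference of both effects 4 genes were called, 0 with total counts, 84 with no filter, 143 by DESeq2, 0 by voom and 0 to 1564 with a library left out, and of the 10 genes 0 to 4. With a library left out, the log2 difference of labelled KO and WT ran from -0.44 to 1.73 for Eln, -0.071 to 1.57 for Fbn1, -0.34 to 2.74 for Lox, -0.094 to 1.80 for Loxl1 and -0.65 to 2.15 for Mfap4, each negative without KO337 only. The median of the 10 genes for the difference of effects ran from -0.68 to 1.41. The cause was not tested. The replicate block by number in IBR and CTL alone called 0 of the 10 genes and 0 of all; same-numbered libraries deviated together with correlations of 0.00937, 0.208 and 0.0513, so the numbers were not taken to pair them.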
